A study of Mus musculus with 40 samples.

Results

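The 6 genes followed here encode molecules with which the blood vessel wall captures and passes leukocytes: Icam1, Icam2, Vcam1, Sele, Selp and Ackr1. They were chosen by name, with no threshold on their values, and all 6 were found among the 54307 genes of the table. RNA of choroid and retina came from 20 mice whose eyes had received 6 laser burns each and were taken 3 days later, giving 40 libraries in 8 groups of 5. All mice were C57BL/6J animals of both sexes, homozygous for floxed Tgfbr2, and all received tamoxifen eye drops for 5 days at 6 to 7 weeks of age. Tgfbr2 ΔEC mice carried in addition the tamoxifen-inducible Cdh5-CreERT2, which is active in endothelial cells, whereas control littermates lacked it. PLX5622 (PLX), a CSF1 receptor inhibitor that depletes mononuclear phagocytes (MP), was fed from the first tamoxifen dose to the end in the + PLX groups. Each genotype is marked – PLX for the normal diet and + PLX for the PLX diet, as in Tgfbr2 ΔEC – PLX.

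Leukocytes leave the blood in steps. P-selectin (Selp) and E-selectin (Sele) on the endothelium bind sugars on passing leukocytes and let them roll, ICAM and VCAM proteins then hold the activated integrins of the leukocyte firmly, and the cell crosses the wall at the junctions. Icam2 is carried by resting endothelium, while Icam1, Vcam1 and Sele are induced by TNF and IL-1 through NF-κB. Selp is stored in granules of endothelial cells and platelets. Ackr1 is a chemokine receptor without classical signaling that marks the endothelium of venules and is also found on red blood cells. The RNA came from tissue and not from sorted cells, in choroid from the central part with the lesions, so fewer cells of a type and less RNA per cell cannot be told apart.

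The deposited values are normalized counts per gene, referred to here as levels. A choroid library summed to between 24718469 and 25956180 and a retina library to between 22256892 and 24507335. One read was worth an estimated 0.903 to 1.19 normalized counts for a choroid library (for a retina library, 0.748 to 1.12), judged from where the lowest values above 0 piled up, and a level of 3 reads or fewer was treated as being at the floor. Differences are on the scale of log2(normalized count + 1), which understates the change of low genes. Without PLX, Tgfbr2 itself, whose deletion is confined by design to endothelial cells, averaged 10176 ± 1077 in the choroids of Tgfbr2 ΔEC mice and 10503 ± 425 (SD, n = 5) in those of controls. Its difference of -0.05 (SE 0.089) did not pass the test (limma, adjusted p = 0.92), so a loss of Tgfbr2 was not detectable in RNA of all choroidal cells. The PLX groups differed as labelled, since 12 of 13 MP markers fell in choroid and 13 of 13 in retina.

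On the mouse genome GRCm39, Icam1 lies at chr9:20926672-20940113 on the plus strand, Icam2 at chr11:106263312-106278943 and Vcam1 at chr3:115903598-115923355, both on the minus strand. Sele (chr1:163867401-163886055) and Selp (chr1:163942833-163977595) are neighbours on the plus strand. Ackr1 lies at chr1:173159453-173161317 on the minus strand, and 361 of its 1405 exonic bases (25.7%) also belong to an exon of Cadm3, a neuronal adhesion gene on the same strand. Reads from the shared bases cannot be assigned with certainty even in stranded libraries. Where the other 5 members share exonic bases with a gene, it lies on the opposite strand, up to 24.5% of the bases in the case of Icam2 and Prr29.

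The stretches before the transcription starts of Icam1 and Sele are shown because both genes are classical targets of TNF and IL-1, and the transcripts of these cytokines fell with PLX in choroid. They hold the 250 bases before the start of the canonical transcript, read 5′ to 3′ from GRCm39, on chr9:20926422-20926671 and chr1:163875523-163875772, both on the plus strand. Capitals mark exact matches on either strand to the NF-κB consensus or to the TATA box TATAAA. The consensus was GGGRNNYYCC, with R for A or G, Y for C or T and N for any base. No match of one motif overlaps a match of the other.
Icam1: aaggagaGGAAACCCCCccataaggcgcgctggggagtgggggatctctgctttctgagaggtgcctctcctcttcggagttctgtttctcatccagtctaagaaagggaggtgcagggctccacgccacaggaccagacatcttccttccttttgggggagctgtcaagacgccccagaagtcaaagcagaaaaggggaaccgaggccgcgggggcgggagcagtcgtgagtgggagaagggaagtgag
Sele: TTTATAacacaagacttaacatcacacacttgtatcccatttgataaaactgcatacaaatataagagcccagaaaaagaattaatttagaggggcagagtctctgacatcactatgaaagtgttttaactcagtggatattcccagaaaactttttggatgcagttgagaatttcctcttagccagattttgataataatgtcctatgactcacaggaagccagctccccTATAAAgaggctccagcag
Icam1 held 1 match to the NF-κB consensus, on the minus strand from -243 to -234 relative to the start. Of 21757 promoters of protein-coding genes of the same length, 1659 (7.63%) held such a match. Sele held no match to the NF-κB consensus and 2 matches to TATAAA, of which the one from -19 to -14 lies on the plus strand, and 11.9% of all promoters held at least 1. The windows of Icam2, Vcam1, Selp and Ackr1 held neither motif. A missing match, for Sele as well, says only that these letters are not in these 250 bases.

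To see where the adhesion molecules are expressed, choroid and retina of the same 20 mice were compared. Icam1, Icam2, Vcam1, Sele and Selp were higher in choroid and Ackr1 was higher in retina, with all 6 genes past the threshold, and of these directions only that of Vcam1 turned when libraries were rescaled to their endothelial markers. Of the 24317 genes tested, 82% passed, 9924 of them higher in choroid and 10006 lower (2313 and 20154 on the endothelial scale, where the median gene lay at -3.43). For each of the 6 genes, no choroid overlapped a retina, which was the case for 33.6% of all genes. Members had a median difference of 5.48 on the log2 scale (4.88 with Sele at its lower bound), against -0.01 over all genes.

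**Figure D1:**
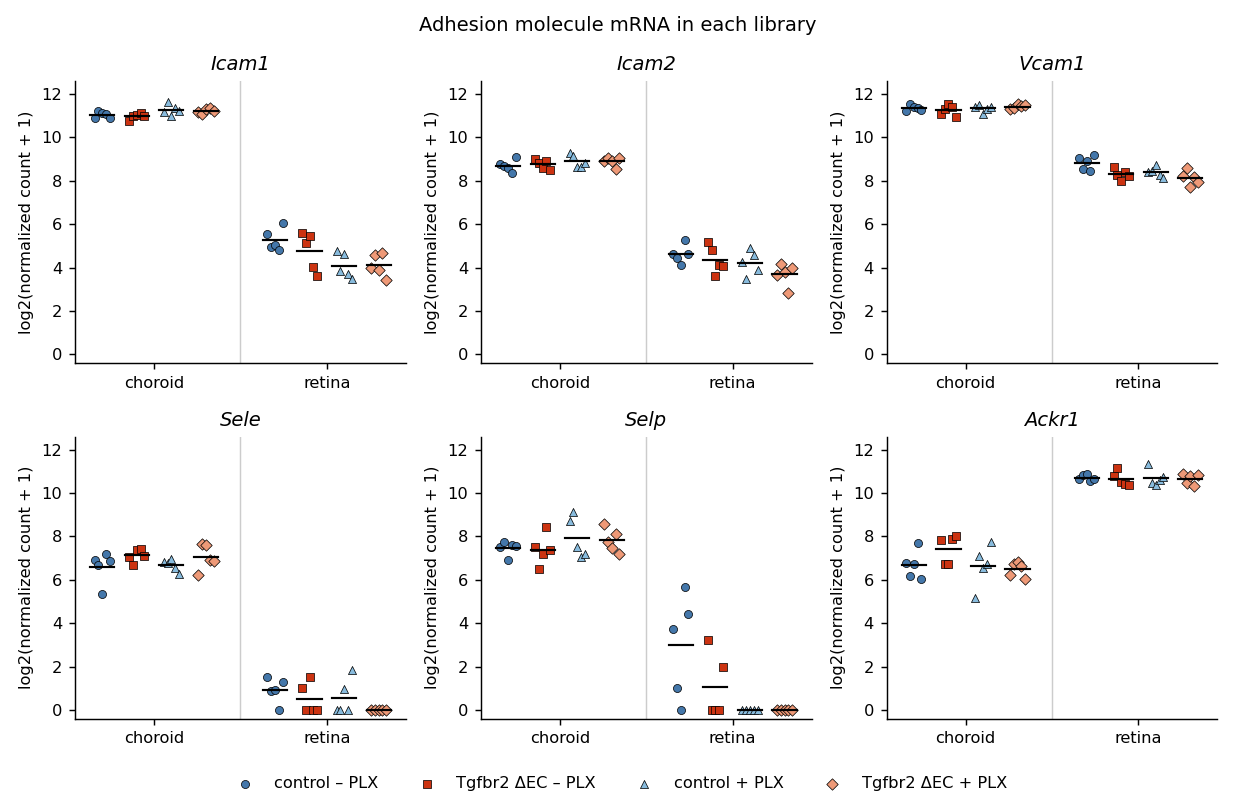
Level of each gene in every library on a log2(normalized count + 1) axis, with 1 point per mouse and a bar for the mean of a group of 5. Icam1, Icam2, Vcam1, Sele and Selp lie higher in choroid than in retina in all libraries and Ackr1 lies lower (relative to endothelial markers, Vcam1 turns), while the 4 groups of a tissue overlap for every gene in choroid.

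Icam1 and Icam2 both hold leukocytes through the integrin LFA-1. Icam1 ranged from 1740 to 3162 with a median of 2234 in the 20 choroids, and from 9.82 to 64.5 with a median of 24.3 in the 20 retinas. The difference of 6.57 (SE 0.14) corresponded to 94.8-fold (limma, adjusted p = 5.83e-32). Icam2 ranged from 326 to 626 in choroid and from 6.204 to 37.95 in retina, a difference of 4.59 (SE 0.13). These differences lie on either side of that of the endothelial marker Cdh5, which was 4.81 (SE 0.14), and above that of Pecam1, which was 3.59 (SE 0.058).

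Vcam1, whose protein binds integrin α4β1, had the smallest difference. Its level ranged from 1954 to 2972 in choroid and from 208 to 590 in retina, a difference of 2.92 (SE 0.073). When each library was rescaled to its endothelial markers, Vcam1 turned to -0.94 (SE 0.065, limma, adjusted p = 1.57e-16) on a scale whose median gene lay at -3.43. There Icam1 was higher in choroid by 2.75 and Icam2 by 0.80. Within a library, the ratio of Vcam1 to Pecam1 had a median of 0.765 in choroid and 1.21 in retina, whereas that of Icam1 to Pecam1 had a median of 0.689 and 0.0819.

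Sele, the inducible selectin, was not detectable above the floor in retina. It ranged from 40.1 to 197 with a median of 118 in choroid. In retina, Sele was at 0 in 12 libraries and at or under 3 reads in all 20, so that its mean choroid level was at least 36.2-fold higher than the highest floor of a retina. Selp ranged from 88.2 to 553 in choroid with a median of 181, and 16 of 20 retinas were at or under the floor. With PLX, where all 10 retinas were at 0, the mean choroid level of Selp was at least 79.6-fold higher than the highest floor.

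Ackr1 was the exception. It ranged from 34.9 to 256 with a median of 106 in choroid and from 1260 to 2565 with a median of 1580 in retina, a difference of -3.86 (SE 0.16, limma, adjusted p = 3.45e-23). Cadm3, whose exon shares bases with Ackr1, ranged from 495 to 1729 in choroid and from 6687 to 10455 in retina, a difference of -3.27 (SE 0.12). Both genes thus ran opposite to Cdh5 and Pecam1. The ratio of Ackr1 to Cadm3 within a library had a median of 0.12 (0.0661 to 0.189) in choroid and of 0.175 (0.122 to 0.384) in retina. How many of the reads given to Ackr1 come from Cadm3 transcripts was not tested.

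**Figure D2:**
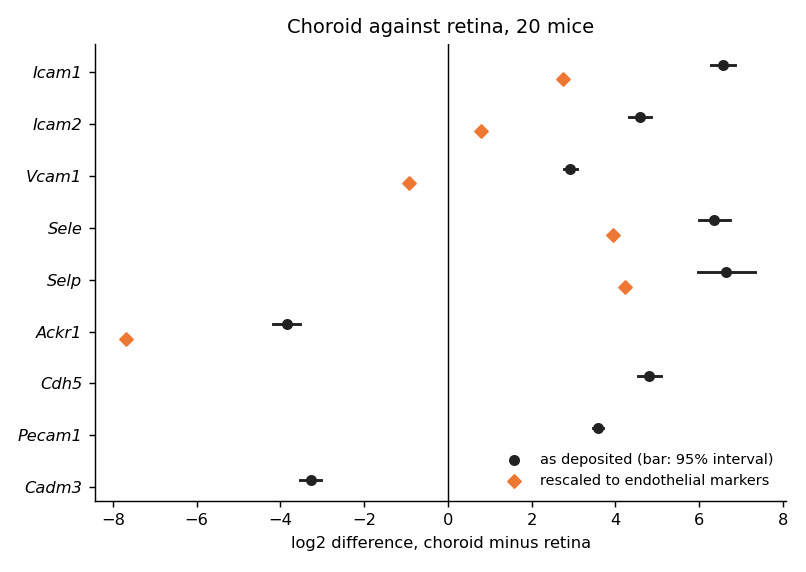
Difference of choroid minus retina on the log2 scale for the 6 members, for the endothelial markers Cdh5 and Pecam1 and for Cadm3. Black points give the values as deposited with their 95% interval, and orange points, drawn for the members only and without interval, give the values after rescaling to endothelial markers, where Vcam1 turns to -0.94. The points of Sele and Selp depend on the pseudocount, since most or all of their retinas were at or under the floor.

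Per kilobase of the canonical transcript, Vcam1 (751 ± 82.5, SD, n = 20) and Icam1 (719 ± 101) led in choroid and did not differ beyond their spread, with Vcam1 higher in 14 of 20 mice. Ackr1 followed at 109 ± 55.7, Icam2 at 70.7 ± 12.3, Selp at 64.5 ± 34.02 and Sele at 32.5 ± 10.4 normalized counts per kilobase. Neighbours among these 4 did not differ beyond the SD of their difference within mice, which is a spread and not a test. Ackr1 lay above Icam2 in 15 of 20 mice, Icam2 above Selp in 14 and Selp above Sele in 17. In retina the order was Ackr1 (1437 ± 286), Vcam1 (101 ± 27.5), Icam1 (8.30 ± 4.71), Icam2 (2.99 ± 1.28), Selp (1.39 ± 3.50) and Sele (0.153 ± 0.218). There only Icam2 and Selp (Icam2 higher in 18 of 20 mice) and then Selp and Sele (Selp higher in 6) did not differ beyond that spread. The value of Icam2 rests on a canonical transcript of 6452 bases, much of the 7425 bases of all its exons, and would be higher for a shorter transcript. That of Ackr1 may include reads from the bases shared with Cadm3, whose number was not tested.

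In choroid, Ackr1 ran with neural genes. Over the 20 choroids, Ackr1 and Cadm3 had a Pearson r of 0.83 (permutation p = 1e-05, the smallest that 100000 resamples can give, adjusted over 8 relations 8e-05) and a Spearman rho of 0.73 (permutation p = 0.00047, adjusted 0.0013). The r was 0.77 without the 2 choroids farthest from the median of Cadm3 and 0.81 within groups. With the score of 10 neural retina markers (the mean of their log2 levels), r was 0.75 (permutation p = 0.00017, adjusted 0.00068) and rho 0.73 (permutation p = 0.00048, adjusted 0.0013). That r was 0.63 without the 2 farthest choroids and 0.66 within groups. With the score of 10 endothelial markers, r was -0.35 (permutation p = 0.13, adjusted 0.17) and rho -0.26 (permutation p = 0.27, adjusted 0.31), -0.31 without the 2 farthest choroids and -0.30 within groups.

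Over the 20 retinas the sign turned, with an r of -0.68 between Ackr1 and Cadm3 (permutation p = 0.0016, adjusted 0.0031) and a rho of -0.59 (permutation p = 0.0067, adjusted 0.011). This r was -0.51 without the 2 farthest retinas and -0.70 within groups. The 2 retinas highest in Ackr1, with 2565 and 2277, held 6687 and 8811 of Cadm3.

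**Figure D3:**
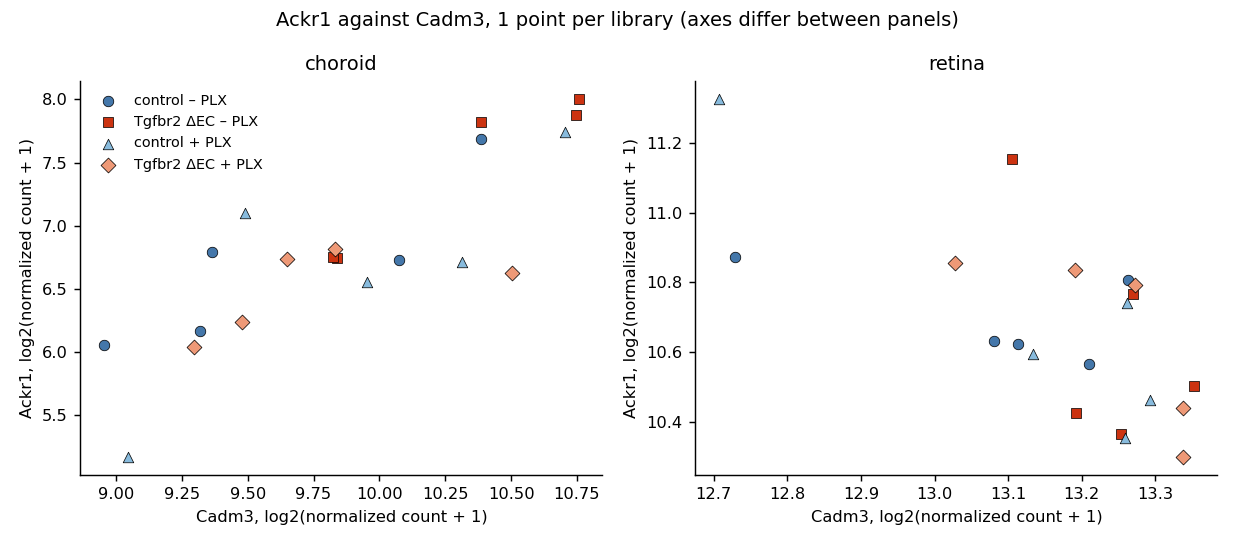
Level of Ackr1 against that of Cadm3 on log2(normalized count + 1) axes, with 1 point per library and separate axis ranges for choroid and retina. The points of both genes rise together over the choroids (r = 0.83) and run in opposite directions over the retinas (r = -0.68).

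Icam2, the gene of resting endothelium, ran with the endothelial score over the 20 choroids, with an r of 0.61 (permutation p = 0.0055, adjusted 0.0089) and a rho of 0.63 (permutation p = 0.0038, adjusted 0.0076), 0.58 without the 2 farthest choroids and 0.66 within groups. Icam1 ran with the score of 13 MP markers over the 20 retinas, with an r of 0.70 (permutation p = 0.00093, adjusted 0.0025) and a rho of 0.80 (permutation p = 6e-05, adjusted 0.00048), 0.63 without the 2 farthest retinas and 0.72 within groups. For Selp no relation passed the test, neither with the score of 8 platelet markers in choroid (r = -0.10, permutation p = 0.66, adjusted 0.66, and rho = -0.11, permutation p = 0.63, adjusted 0.63) nor with that of 6 fibroblast markers in retina (r = 0.34, permutation p = 0.15, adjusted 0.17, and rho = 0.43, permutation p = 0.059, adjusted 0.079). The former r was -0.18 without the 2 farthest libraries and 0.14 within groups, the latter 0.68 and 0.08.

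As a description, the genes whose levels ran most like a member's were listed over the 20 libraries of a tissue, as the highest Pearson r among 17597 genes in choroid and 17180 in retina. In choroid these were Plekhf1, Pgf and Penk for Icam1 (r 0.84 to 0.85), Cd79a, Tbc1d20 and Utp15 for Icam2 (0.75 to 0.76) and Gm29083, Adgra2 and Uimc1 for Vcam1 (0.71 to 0.86). They were Zfp114 and Cage1 for Sele (both 0.72), Vstm4, Tbx2 and Gpr180 for Selp (0.78 to 0.79) and Lrtm1, Pcp2 and Lingo3 for Ackr1 (0.87 to 0.89). In retina, Icam1 ran most like Lcn2, Ifi27l2a and Srgn (0.84 to 0.85), Vcam1 like Ctla2a, Gbp2 and Serping1 (0.81 to 0.84), Icam2 like Galns, Ehd4 and Rnf121 (0.71 to 0.73) and Ackr1 like Plk5, Ddx39b and Vps16 (0.90). The selectins were too low there for such a list. Among the members themselves, the closest pair was Icam1 and Vcam1 in both tissues, with an r of 0.68 in choroid and 0.65 in retina.

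To see whether the depletion of MP changed the adhesion molecules, the 10 + PLX mice were compared with the 10 – PLX mice, over both genotypes. In choroid none of the 6 members passed the test (limma), against 7.13% of the 23619 genes tested (489 rose and 1195 fell), and 1 had an unadjusted p under 0.05, against 19.3% of all genes. The median difference of the members was 0.12, against 0.00 over all genes. In retina none of the 5 members tested passed (Sele was too low), against 1.09% of 23243 genes, while 4 had an unadjusted p under 0.05, against 6.28% of all genes. The median there was -0.53, against 0.00 over all genes.

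Icam1, the ligand of LFA-1 and Mac-1, came closest to a change in choroid. Its level was 1920, 2404, 2260, 2139 and 1908 in control – PLX and 2273, 3162, 2011, 2586 and 2375 in control + PLX choroids. In Tgfbr2 ΔEC – PLX choroids it was 1740, 2026, 2122, 2208 and 2017, and in Tgfbr2 ΔEC + PLX choroids 2332, 2167, 2537, 2615 and 2402. The + PLX choroids tended to be higher, with overlap in both genotypes. The difference of 0.23 (SE 0.074, limma, adjusted p = 0.062) corresponded to 1.18-fold and had an exact permutation p of 0.0038. Pecam1 rose by 0.24 (SE 0.069, limma, adjusted p = 0.042) and 7 of 10 endothelial markers rose in the same choroids, and after rescaling to endothelial markers Icam1 turned to -0.05 (SE 0.078, limma, adjusted p = 0.68). That scaling moved the median of all genes to -0.24, with 73 genes higher and 7100 lower. Icam1 passed the test among genes with a mean of at least 10 (limma, adjusted p = 0.048), without mouse 2 (0.047) and without mouse 13 (0.021).

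None of the other members passed over both genotypes in choroid. Vcam1 averaged 2611 ± 285 with and 2622 ± 226 without PLX in control choroids, and 2754 ± 185 with and 2463 ± 414 (SD, n = 5) without PLX in Tgfbr2 ΔEC choroids, a difference of 0.08 with a 95% interval from -0.07 to 0.24. Icam2 differed by 0.16 (-0.07 to 0.39), Sele by 0.00 (-0.45 to 0.45), Selp by 0.44 (-0.13 to 1.00) and Ackr1 by -0.49 (-1.08 to 0.10). Ackr1 differed by -0.95 within Tgfbr2 ΔEC mice (-1.78 to -0.12, exact permutation p = 0.032, limma, adjusted p = 0.23) and by -0.03 within control mice, and the difference between these effects, which is the same contrast as that of the genotype effects between diets, was -0.92 (exact permutation p = 0.145). In the Tgfbr2 ΔEC choroids Cadm3 differed by -0.56 with PLX, and the summed level of the neural retina markers was 6580 to 20838 with PLX and 46657 to 135557 without. Over both genotypes the difference of Ackr1 was -0.12 (SE 0.25) once the score of these markers entered the fit. In Tgfbr2 ΔEC choroids the marker sums did not overlap between the diets, so diet and neural markers cannot be told apart there. The intervals of the selectins and Ackr1 are wider than those of Vcam1 and Icam2. On the endothelial scale Vcam1 turned to -0.20 and Icam2 to -0.12. Selp was 422 and 553 in 2 of the control + PLX choroids and 132 to 181 in the other 3.

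These values stood beside lower transcripts of the cytokines that induce Icam1, Vcam1 and Sele. Tnf was 18.3, 38.2, 59.5, 38.2 and 45.6 in control – PLX and 16.6, 19.5, 10.8, 5.11 and 4.64 in control + PLX choroids. It was 30.5, 51.8, 36.1, 61.7 and 16.97 in Tgfbr2 ΔEC – PLX and 20.3, 24.7, 9.91, 5.97 and 15.5 in Tgfbr2 ΔEC + PLX choroids. The + PLX choroids were lower with little overlap, by -1.58 (SE 0.33, limma, adjusted p = 0.0029), and Il1b differed by -1.37 (SE 0.33, adjusted p = 0.012). In the same choroids 12 of 13 MP markers fell (median -2.64), and their part in these falls was not tested.

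**Figure D4:**
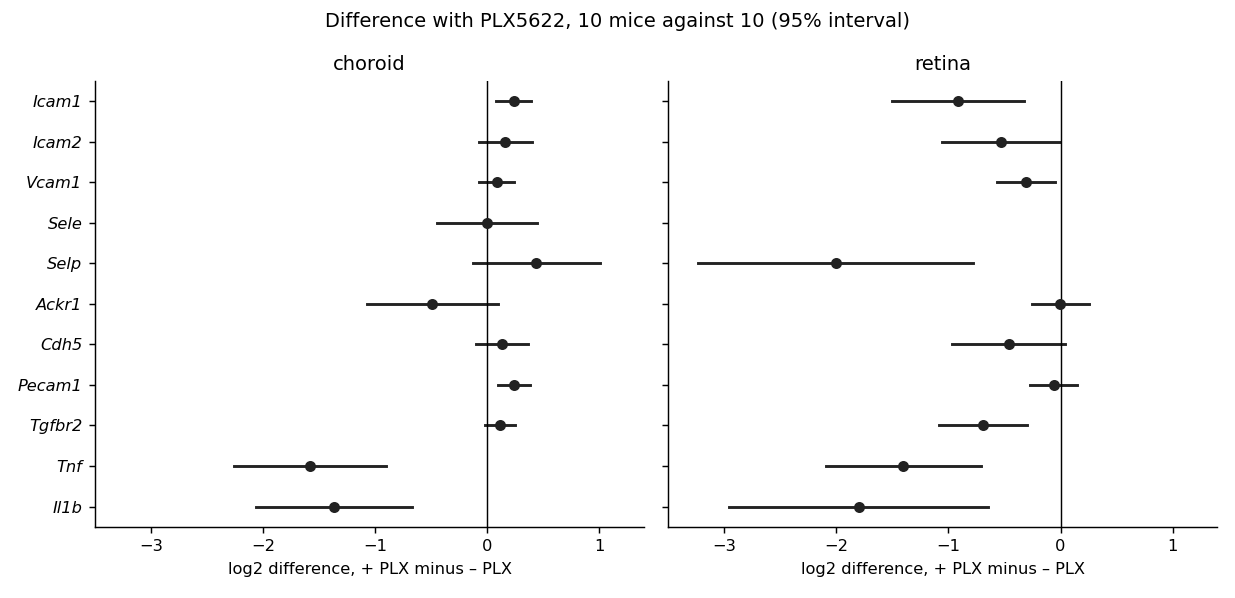
Difference of + PLX minus – PLX mice on the log2 scale with its 95% interval, 10 mice against 10, in choroid and retina. Icam1, Icam2, Vcam1 and Sele lie within 0.25 of 0 in choroid while Tnf (-1.58) and Il1b (-1.37) are lower, and Sele is left out of the retina panel because it was too low to test.

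In retina the level of Icam1 was 45.4, 29.6, 32.2, 27.3 and 64.5 in control – PLX and 26.1, 13.5, 23.7, 12.2 and 10.1 in control + PLX mice, which did not overlap. In Tgfbr2 ΔEC – PLX retinas it was 47.2, 33.9, 42.7, 15.5 and 11.3, and in Tgfbr2 ΔEC + PLX retinas 14.8, 23.03, 14.1, 24.9 and 9.82, with overlap. The difference over both genotypes was -0.92 (SE 0.28) with an exact permutation p of 0.0064, and it did not pass after adjustment (limma, adjusted p = 0.23). It was -1.19 within control mice (exact permutation p = 0.0079, the smallest that 5 against 5 allows) and -0.64 within Tgfbr2 ΔEC mice (exact permutation p = 0.19). The MP markers fell in the same retinas, by a median of -5.40 over 13 of 13 markers, with a summed level of 2083 to 4758 in – PLX and 401 to 549 in + PLX retinas. Their part in the difference of Icam1 was not tested.

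Selp was above 0 in retina only in mice without PLX. Levels were 12.4, 0.99, 0, 50.5 and 20.6 in control – PLX and 8.37, 0, 0, 0 and 2.97 in Tgfbr2 ΔEC – PLX retinas, while all 10 + PLX retinas were at 0. Hence 6 of 10 – PLX retinas and 0 of 10 + PLX retinas were above 0, but only 4 of those 6 were above 3 reads. In control mice the mean without PLX (16.9) was at least 5.13-fold higher than the highest floor with PLX, and without mouse 4, the highest, at least 2.58-fold (mean 8.49), and in Tgfbr2 ΔEC mice the mean (2.27) was itself under that floor. The difference over both genotypes had an exact permutation p of 0.011 and did not pass after adjustment (limma, adjusted p = 0.19). It passed without mouse 3 (limma, adjusted p = 0.022), a control – PLX mouse at 0. The fibroblast markers, which the neural retina should not hold, had a summed level of 408 to 1468 in – PLX and 415 to 1170 in + PLX retinas, and none of 6 passed (median -0.73). Of 8 platelet markers 3 were high enough to be tested there, and Pf4, a gene that macrophages express as well, passed as lower, although it was at or under 3 reads in 16 of 20 retinas. The part of these cells in the Selp values was not tested.

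Vcam1 in retina was 532, 375, 476, 345 and 590 in control – PLX and 344, 348, 428, 308 and 277 in control + PLX mice. In Tgfbr2 ΔEC – PLX retinas it was 402, 306, 255, 343 and 302, and in Tgfbr2 ΔEC + PLX retinas 296, 381, 208, 291 and 247. The control – PLX retinas were the highest group, but overlapped with each of the others. The difference over both genotypes was -0.31 (SE 0.13, exact permutation p = 0.029, limma, adjusted p = 0.59). Icam2 differed by -0.53 (SE 0.25, exact permutation p = 0.036, limma, adjusted p = 0.79), and Cdh5 by -0.46 (SE 0.24, limma, adjusted p = 0.86), while none of the 10 endothelial markers passed (median -0.12). Ackr1 differed by 0.00, with an interval from -0.25 to 0.25, and Sele was at or under 3 reads in every retina.

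The effect of PLX was then compared between the tissues, in 1 model over all 40 libraries. Of the 6 members only Icam1 passed the test, against 1.37% of the 24317 genes tested, and 4 had an unadjusted p under 0.05, against 10.2% of all genes. The effect on Icam1 was higher in choroid than in retina by 1.15 (SE 0.29, limma, adjusted p = 0.025), with an exact permutation p of 0.0033 for the difference between the tissues of a mouse. With the mouse as a block the value was again 1.15 (SE 0.30) but its adjusted p was 0.083 (limma). The adjusted p ranged from 0.0041 to 0.083 over 28 alternatives, of which 17 passed the threshold, and the call was lost without any one of mice 1, 5, 6, 7, 8, 12, 14, 16, 18 and 20. Selp differed by 2.44 (SE 0.67, exact permutation p = 0.0019) without passing (limma, adjusted p = 0.059). Over 28 alternatives its value ran from 1.43 to 3.10, and 7 passed (limma, adjusted p from 0.0092 to 0.13). All + PLX retinas were at 0 for Selp, so its value depends on the pseudocount. Tgfbr2, which is no adhesion molecule, passed with 0.81 (SE 0.20, limma, adjusted p = 0.024), and the MP markers passed in 9 of 13 cases, with a median of 3.01. Of 10 endothelial markers 2 passed in the same direction, Tek (0.58) and Tie1 (0.64), with a median of 0.44, and of 8 pericyte markers 2, Rgs5 (0.56) and Pdgfrb (0.35), with a median of 0.39. Their part in the difference of Icam1 was not tested.

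To address the role of endothelial TGFβ signaling, Tgfbr2 ΔEC and control mice were compared in each diet. No member passed the test in choroid (limma), with 0 of 6 at an unadjusted p under 0.05 both without and with PLX, against 0.00423% of the 23619 genes called in each and 9.25% and 3.76% at an unadjusted p under 0.05. No member passed in retina either, against 0% of the 23243 genes in each diet. At an unadjusted p under 0.05 there were 2 of 5 without PLX, against 3.26% of all genes, and with PLX none of the 4 that were above 0, since Selp was at 0 in all 10 mice, against 2.71%. The difference of the genotype effects between the diets was called for 0% of all genes and no member in either tissue, with 0 members at an unadjusted p under 0.05 (limma), against 6.57% of all genes in choroid and 2.44% in retina.

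The firm adhesion molecules were close between the genotypes in choroid. Icam1 differed by -0.07 without PLX, with a 95% interval from -0.29 to 0.15, and by -0.03 with PLX (-0.25 to 0.19). Vcam1 differed by -0.10 (-0.32 to 0.12) and 0.08 (-0.14 to 0.30), and Icam2 by 0.06 (-0.27 to 0.39) and -0.01 (-0.34 to 0.32). Relative to endothelial markers, Vcam1 with PLX turned to -0.11.

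The selectins were less certain. Sele was 119, 103, 40.1, 143 and 117 in control – PLX and 133, 103, 164, 171 and 134 in Tgfbr2 ΔEC – PLX choroids. With PLX it was 113, 110, 122, 91.2 and 76.7 in control and 73.1, 197, 196, 119 and 116 in Tgfbr2 ΔEC mice. The Tgfbr2 ΔEC groups tended to be higher, with overlap, by 0.52 without PLX (SE 0.30, exact permutation p = 0.13) and 0.37 with PLX (SE 0.30, exact permutation p = 0.24). Without mouse 3, the control choroid at 40.1, the former was 0.21. Leaving out 1 mouse at a time gave 0.23 to 0.58 for the latter. Selp differed by -0.07 (-0.87 to 0.73) without and -0.10 (-0.90 to 0.70) with PLX.

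Ackr1 in choroid was 110, 70.5, 105, 205 and 65.4 in control – PLX and 225, 106, 107, 234 and 256 in Tgfbr2 ΔEC – PLX mice, with overlap. With PLX it was 34.9, 136, 92.8, 104 and 213 in control and 74.1, 106, 112, 97.5 and 64.5 in Tgfbr2 ΔEC mice. Without PLX the difference was 0.75 (SE 0.40, exact permutation p = 0.079), and with PLX it was -0.17. Cadm3 differed by 0.69 (SE 0.31) without PLX in the same choroids. Of 10 neural retina markers none passed in these choroids (median 2.48), while their summed level ranged from 46657 to 135557 in the Tgfbr2 ΔEC and from 2827 to 26862 in the control mice without PLX. Once the score of these markers entered the fit, the difference of Ackr1 turned to -0.07 (SE 0.39). The sums did not overlap between the genotypes without PLX, so genotype and neural markers cannot be told apart there.

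**Figure D5:**
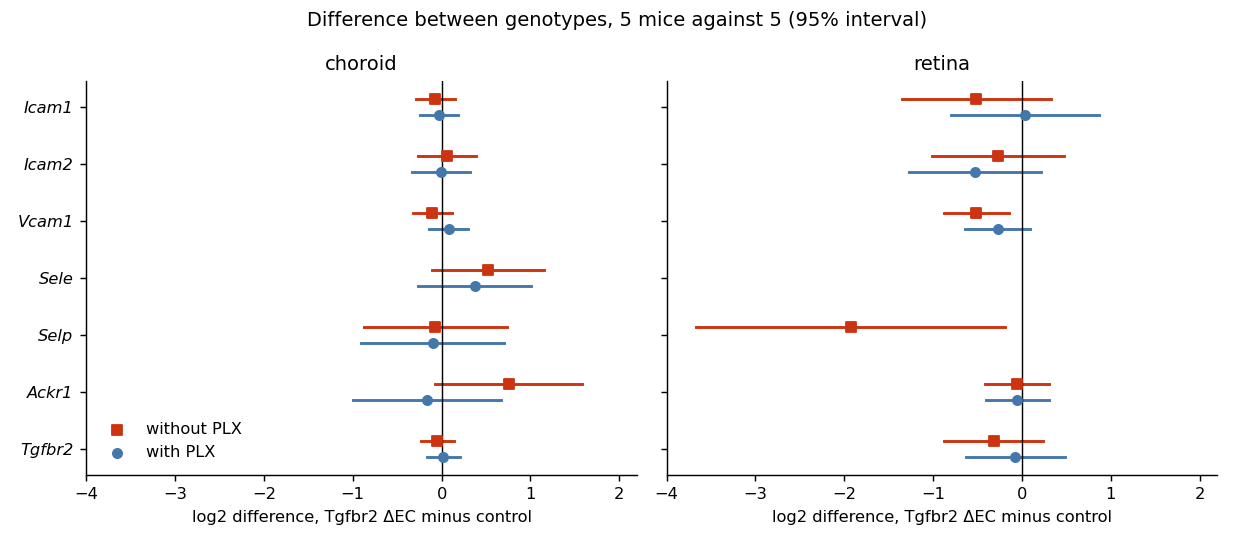
Difference of Tgfbr2 ΔEC minus control mice on the log2 scale with its 95% interval, 5 mice against 5, without PLX (red squares) and with PLX (blue circles). In choroid all intervals include 0, and in retina those of Vcam1 and Selp without PLX do not, although neither passed after adjustment. Sele in retina, and Selp in retina with PLX, where all 10 mice were at 0, are left out.

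In retina without PLX, Vcam1 was lower in Tgfbr2 ΔEC than in control mice by -0.51 (SE 0.18, exact permutation p = 0.032) on the levels given above, and this did not pass after adjustment over all genes (limma, adjusted p = 0.99). With PLX it differed by -0.27 (SE 0.18, exact permutation p = 0.17), and the difference between the diets was 0.24 (SE 0.25, exact permutation p = 0.45). Selp differed by -1.93 without PLX (SE 0.84, exact permutation p = 0.17), with 4 of 5 control and 2 of 5 Tgfbr2 ΔEC retinas above 0. Icam1 differed by -0.51 (SE 0.40, exact permutation p = 0.30). Leaving out 1 mouse at a time gave -0.72 to -0.23 for Icam1 and -2.67 to -1.25 for Selp.

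The partners of the adhesion molecules on leukocytes were examined next. Of 8 integrin genes whose products bind ICAMs or VCAM-1, 6 fell in choroid and 3 in retina, against 1195 of 23619 and 250 of 23243 of all genes, with a median of -0.98 in choroid and -0.63 in retina. Itgam, the α chain of Mac-1, changed by -2.02 (SE 0.12, limma, adjusted p = 1.83e-10) in choroid and by -5.98 (SE 0.45, adjusted p = 1.17e-08) in retina. Itgb2, the β chain shared by LFA-1 and Mac-1, changed by -1.26 (SE 0.12) and -4.47 (SE 0.46). Itgax changed by -1.05 and -3.59, and Itgal, the α chain of LFA-1, by -0.95 in choroid. The MP markers fell in the same libraries, and their part in these falls was not tested.

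Of 8 selectin ligands and carriers, 7 were tested in each tissue. Over all genes, 1195 of 23619 fell in choroid and 250 of 23243 in retina. In choroid 2 fell, Selplg (-1.77, SE 0.17) and Spn (-1.48, SE 0.17), and in retina 1, Selplg (-5.97, SE 0.39). Selplg encodes PSGL-1, the main partner of P-selectin, and Spn another mucin on leukocytes. The median of the list was -0.39 in choroid and -0.02 in retina, beside medians of the MP markers of -2.64 and -5.40, whose part was not tested. Among 7 enzymes tested that build the ligands, Gcnt1 (-0.93) and Fut4 (-0.69) fell in choroid and none passed in retina, with medians of -0.06 and -0.24.

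Junction and vein genes that passed in choroid were higher with PLX, and those of cytokine signaling and shedding were lower, where 489 of all 23619 genes were higher and 1195 lower. In the same choroids 7 of 10 endothelial markers rose (median 0.25), and their part in the rises was not tested. Of 10 transmigration and junction genes, Esam rose by 0.35 (SE 0.066) and Pecam1 by 0.24, with a median of 0.15, and none passed in retina (median -0.06). Of 7 vein and venule markers, Nr2f2 rose by 0.25 and Ephb4 by 0.21 in choroid, with a median of 0.25, and none passed in retina (median -0.15). The endothelial scale cannot weigh these rises, since it is set by the endothelial markers, with Pecam1 and Esam among them. It moved the median of all genes to -0.24. Of 14 genes of the TNF and IL-1 pathway, 4 fell in choroid, namely Tnf and Il1b, Il1a (-1.25, SE 0.22) and the receptor Tnfrsf1b (-0.53, SE 0.15), with a median of -0.10. In retina Il1a (-2.96, SE 0.35) and Tnf fell, with a median of -0.29, although Tnf was at or under 3 reads in 18 of 20 retinas. Of 5 anchors and sheddases, Adam17, which sheds adhesion molecules, fell in choroid (-0.35, SE 0.056), with a median of -0.13, and none passed in retina (median -0.08).

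In none of the 4 comparisons between the genotypes did a gene of these 7 lists pass the test (limma), out of 58 entries tested in each, against 0.00423% of all genes in choroid and 0% in retina. Their medians lay between -0.08 and 0.09 in choroid and between -0.40 and 0.02 in retina without PLX, and between 0.02 and 0.16 and between -0.12 and 0.13 with PLX. Between the tissues, 53 of 59 entries were higher in choroid and 4 lower, against 9924 and 10006 of all 24317 genes. The latter were Tnfaip3 (-3.73, SE 0.091), an inhibitor of NF-κB signaling, Glycam1 (-1.63), Jam2 (-0.73) and Chst2 (-0.15). Of the further ICAM genes, Icam5, known from neurons, was lower in choroid (-1.33, SE 0.17) and Icam4 higher (0.69, SE 0.29), and neither passed for PLX or genotype. The effect of PLX differed between the tissues for 6 of the 59, where the value in choroid lay above that in retina, namely Selplg (4.196), Itgam (3.96), Itgb2 (3.21), Itgax (2.54), Il1a (1.71) and Cd34 (0.68). The first 5 fell less in choroid than in retina, and the effect differed in the same direction for 9 of 13 MP markers.

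Of the other cells the tissues could hold, no neutrophil marker passed the test of PLX (0 of 7 in choroid, median 0.15, and 0 of 4 in retina, median -1.05). No erythroid marker passed either (0 of 5 in each tissue, medians 1.35 and 0.73). Ackr1 was not tested against them. The 10 neural retina markers (medians -1.10 and 0.08) and 7 retinal pigment epithelium markers (0.24 and 0.61) did not pass in either tissue. In choroid, 2 of 8 pericyte and smooth muscle markers and 1 of 6 fibroblast markers rose and 2 of 6 Müller glia markers fell, with none of these lists passing in retina. Of all 23619 genes tested in choroid, 489 rose and 1195 fell.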

How the data were processed

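RNA of 20 choroids and 20 retinas was sequenced as stranded single reads. The authors quantified reads with salmon 1.10.1 on GRCm39 and read the estimates into DESeq2 1.36.0 through tximport. The deposited signal is the normalized count per gene. It is not made of whole reads, so no count test was run. Symbols and positions came from GENCODE release 39 (later than the authors' release), which matched 53700 identifiers and missed 607. Members and lists were chosen with earlier results of these data known.

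Every gene whose mean reached 1 was tested on log2(normalized count + 1) with limma 3.58.1 (R 4.3.3, mean-variance trend, 4 groups per tissue or 8 groups in one fit). Benjamini-Hochberg adjusted p at or under 0.05 passed. The procedure was tested on simulated data. Members were also compared by two-sided exact permutation tests (252 relabellings of 5 against 5, 63504 within strata) and correlations by 100000 permutations, with Python 3.11.15 and scipy 1.17.1. Up to 4 genes per list, comparison and direction with the lowest p were named, and the 3 most similar genes per member. One such gene and 1 gene of a list are not reported here, and the other genes of that list are given singly. Between the tissues, list genes higher in choroid are given as counts. Choroid libraries held about 21583339 to 28252868 reads, retina libraries about 20987041 to 30319836. The floor of 3 reads covers counting error only. The 2 tissues of a mouse share its number in the labels. Their deviations from the group means, over 18160 genes, correlated with a median r of 0.13 (-0.16 to 0.29), over 0.1 in 12 of 20 mice. Alternatives were pseudocounts of 0.5 and 5, other minimum means, other scalings, neural retina and sex scores as covariates, fits of fewer groups, a mouse block and leaving out each mouse.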

Additional observations from a re-analysis of the deposited data

Results flagged for a closer look

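The effect of PLX on Icam1 differed between the tissues, being 1.15 higher in choroid than in retina on the log2 scale (limma, adjusted p = 0.025). Icam1 was 0.23 higher with PLX in choroid and differed by -0.92 in retina. The call was lost with the mouse as a block (adjusted p = 0.083). In control – PLX choroids, mouse 3 was the lowest for both selectins and stood apart on the log2 scale, by 0.735 of the range of the 5 mice for Sele (40.1 normalized counts) and by 0.73 for Selp (118.8), where the limit is 0.71. On the scale of normalized counts no library did, and the log2 scale was added after seeing the data. Chance gives about 1 in 20 groups, or 2.2 of the 45 groups with a nonzero range.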

How the results depend on the processing

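Each mouse was left out in turn and other settings were tried one at a time. Apart from mice left out, 435 values kept their direction and their side of the threshold, 20 reversed, 5 gained and 1 lost a call. Among genes with a mean of at least 10, 1 member passed for PLX in choroid and 2 for the difference of the PLX effect between the tissues, where 2 passed with a pseudocount of 0.5 and 3 on the endothelial scale.

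With the mouse as a replicate block, 0 members passed for the difference of the PLX effect between the tissues (Icam1 1.15, limma, adjusted p = 0.083), and the other comparison the block applies to, choroid against retina, called all 6 members as before.

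On the endothelial scale, these values reversed. PLX in choroid gave -0.049 for Icam1, -0.12 for Icam2 and -0.2 for Vcam1, and PLX in retina gave 0.189 for Ackr1. The genotype gave -0.109 for Vcam1 in choroid with PLX and 0.019 for Ackr1 in retina without PLX. The difference between diets gave -0.094 for Icam1 in choroid and -0.049 for Ackr1 in retina. Between the tissues Vcam1 gave -0.939, and its PLX effect differed by -0.081. With a sex score, Selp gave 0.087 without and 0.156 with PLX for the genotype in choroid and 0.069 for the difference between diets, Icam2 gave 0.047 for the genotype in choroid with PLX, and Ackr1 gave 0.007 for PLX in retina. With the neural retina score, Ackr1 gave -0.065 for the genotype in choroid without PLX and Sele 0.058 for PLX in choroid. PLX within control mice gave -0.009 for Vcam1 and 0.071 for Sele in choroid, and within Tgfbr2 ΔEC mice 0.002 for Ackr1 in retina. The cause was not tested.

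Leaving out 1 mouse moved the number of members called from 0 to between 0 and 1 for PLX in choroid (1 without mouse 2 or 13) and in retina (1 without mouse 3), and from 1 to between 0 and 2 for the difference of the PLX effect between the tissues. These ranges included both signs, none of them with a call. For the genotype in choroid without PLX they were -0.026 to 0.16 for Icam2 and -0.329 to 0.158 for Selp. For the genotype in choroid with PLX they were -0.1 to 0.063 for Icam1, -0.077 to 0.092 for Icam2, -0.315 to 0.201 for Selp and -0.537 to 0.107 for Ackr1. For PLX in choroid they were -0.159 to 0.101 for Sele. For the difference between diets in choroid they were -0.029 to 0.134 for Icam1, -0.167 to 0.03 for Icam2, -0.293 to 0.162 for Sele and -0.257 to 0.272 for Selp. For the genotype in retina without PLX they were -0.184 to 0.013 for Ackr1. For the genotype in retina with PLX they were -0.119 to 0.206 for Icam1 and -0.137 to 0.106 for Ackr1. For PLX in retina they were -0.08 to 0.063 for Ackr1. For the difference between diets in retina they were -0.08 to 0.163 for Ackr1.

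Sele lay at or under the floor of 3 reads in every retina, where a difference was not detectable. Selp in retina with PLX was at 0 in all 10 mice, so that its genotype difference was 0 by construction and was tried under no alternative.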
